A study of Mus musculus with 10 samples.

Results

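Ribosome footprints of 9 transcription factor genes were followed through the making of the mouse neocortex. The genes are the 4 nuclear factor I (NFI) genes Nfia, Nfib, Nfic and Nfix, the 2 Zbtb genes Zbtb18 and Zbtb20, and the 3 E-protein genes Tcf3, Tcf4 and Tcf12. They were chosen by gene symbol, and all 9 were among the 22373 genes of the footprint count table and among the 13484 that held enough footprints to be tested. The samples were neocortex of wild-type CD-1 mice, with both sexes together, at the embryonic stages E12.5, E14, E15.5 and E17, named by days of gestation, and on the day of birth (P0). Each stage had 2 libraries, each made from several brains together, so an SD below is the spread between 2 pools, while the SE and interval of a fold change come from a fit that shares the spread of all 5 stages. Values of a pair are given with replicate 1 first. No stage received a treatment, and E12.5 served as the baseline. Ribosome profiling (Ribo-seq) digests the RNA that ribosomes do not cover and sequences the protected fragments. A footprint count therefore combines how much of an mRNA the tissue held with how densely ribosomes occupied it, and these cannot be told apart in these counts.

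The 3 groups of genes stand at different points of cortical development. NFI proteins bind DNA as dimers and are known in the developing cortex for moving radial glia away from self-renewal, towards the production of neurons and then of glia. Zbtb18 and Zbtb20 are zinc-finger repressors with a BTB domain. Zbtb18, also called RP58, is required for the differentiation and migration of cortical neurons, and Zbtb20 is known from the hippocampus and from astrocyte production. E proteins are the broadly expressed partners of tissue-specific basic helix-loop-helix (bHLH) factors such as Neurog2. The paired proteins bind E-box sequences, and Id proteins, which lack a DNA-binding region, tie up E proteins in pairs that cannot bind.

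Levels are given in CPM, the count of a gene per 1000000 counts of the library total scaled with TMM factors. They were not divided by coding length, so they compare stages for 1 gene and not genes with each other. The libraries held from 7544404 footprints (P0 replicate 1) to 36129988 (E14 replicate 2), and the lowest count of any of the 9 genes in any library was 153. Genes with symbols starting with Hist took from 6.32% of the footprints in P0 replicate 2 to 38.5% in E12.5 replicate 2. The P0 libraries stood apart, since the log2 ratio between replicates had an SD of 0.54 over 4559 well-counted genes at P0 and of 0.13 to 0.22 at the other stages. The fit shares the spread of a gene over all stages. For genes that spread more at P0, SEs and p-values are thus too small in comparisons with P0 and too large between earlier stages. The log2 ratio of the Nfix replicates was 0.48 at P0 and -0.018 at E12.5, yet its SE was 0.14 for both E14 and P0 against E12.5. All 10 neuron markers were called higher at P0 than at E12.5 and all 10 markers of radial glia and progenitors were called lower, on whole tissue in which fewer cells of a type and less RNA per cell cannot be told apart. Markers of tissue around the cortex also moved with stage. The summed level of 6 meningeal fibroblast genes was 62.9 to 101 CPM at E12.5 and E14 and 2.53 to 7.14 CPM later, and that of the choroid plexus genes was 285 to 1162 CPM at E12.5 and E14 and 5.33 to 13.9 CPM later. The part of these differences in the results for the 9 genes was not tested.

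The 4 NFI genes followed 4 different courses. Nfia, the member best known for starting gliogenesis, held 333 and 336 CPM in the E12.5 pair, 367 and 361 in the E14 pair, 304 and 276 in the E15.5 pair, 208 and 195 in the E17 pair and 125 and 128 in the P0 pair. Its level was highest at E14 and no library of any later stage reached the level of an earlier one from E14 on. From E12.5 to P0 its footprints fell by 1.40 on the log2 scale (SE 0.09, limma adjusted p = 4.54e-06).

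Nfib, which acts with Nfia in progenitors, held 802 and 724 CPM in the E12.5 pair, 837 and 946 in the E14 pair, 1129 and 1087 in the E15.5 pair, 790.3 and 745 in the E17 pair and 454 and 512 in the P0 pair. The E15.5 libraries stood above those of all other stages and the P0 libraries below them, whereas the E12.5 and E17 libraries overlapped. Nfib fell by 0.66 from E12.5 to P0 (log2, SE 0.11, limma adjusted p = 0.000846), but its E17 level differed from that at E12.5 by only 0.0088, with a 95% confidence interval from -0.24 to 0.26.

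Nfix, the member most studied in the timing of progenitor maturation, held 375 and 370.4 CPM in the E12.5 pair, 619.9 and 582 in the E14 pair, 974 and 998 in the E15.5 pair, 939 and 966 in the E17 pair and 643 and 899 in the P0 pair. Its libraries lay higher at each stage up to E15.5, and both P0 libraries lay below both E17 libraries and above both E14 libraries. The rise from E12.5 to P0 was 1.02 on the log2 scale (SE 0.14, limma adjusted p = 0.000375). Lyl1 is the only protein-coding gene among those tested whose annotated span overlaps that of Nfix, and it averaged 11.7 footprints a library.

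Nfic, better known outside the brain, for instance in tooth development, held 29.0 and 26.7 CPM in the E12.5 pair, 33.7 and 28.6 in the E14 pair, 31.8 and 26.0 in the E15.5 pair, 29.3 and 32.6 in the E17 pair and 19.4 and 47.1 in the P0 pair. The P0 pair spanned the values of every other library, and all neighbouring stages overlapped. The difference from E12.5 to P0 was 0.21 on the log2 scale with an interval from -0.57 to 0.99 (limma adjusted p = 0.607), so a change by close to a factor of 2 in the upward direction lay inside the interval. This value rested on single libraries, being 0.77 (adjusted p = 0.0018) without P0 replicate 1 and -0.48 (adjusted p = 0.0536) without P0 replicate 2.

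**Figure D1:**
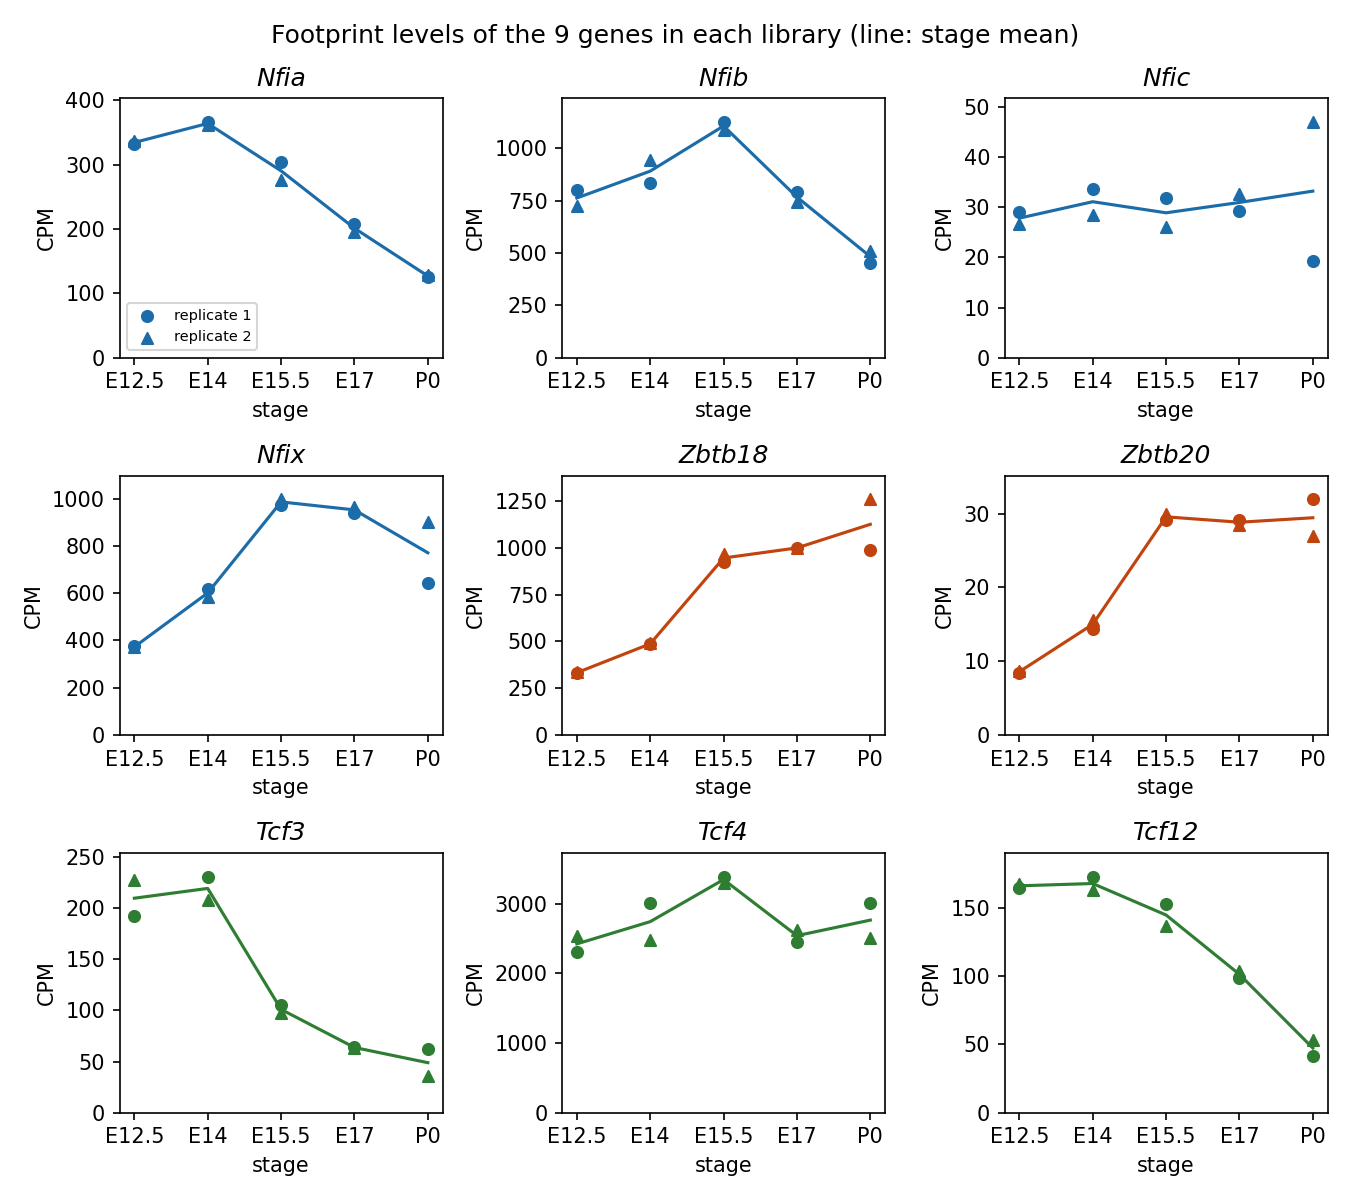
Footprint level (CPM, vertical axis from 0) of each of the 9 genes at the 5 stages, with 1 point per library (circles replicate 1, triangles replicate 2) and a line through the stage means. Nfia, Tcf3 and Tcf12 decline after E14, Nfix, Zbtb18 and Zbtb20 climb until E15.5, Nfib and Tcf4 are highest at E15.5, and the 2 P0 libraries of Nfic lie far apart.

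The Zbtb genes rose together. Zbtb18 held 331 and 335 CPM in the E12.5 pair, 484 and 489 in the E14 pair, 925 and 964 in the E15.5 pair, 1001 and 997 in the E17 pair and 990.0 and 1259 in the P0 pair. All libraries from E15.5 on lay above all those of E12.5 and E14, and the P0 pair overlapped the E17 pair. The rise from E12.5 to P0 was 1.74 on the log2 scale (SE 0.12, limma adjusted p = 5.61e-06). Zbtb20 held 8.42 and 8.75 CPM in the E12.5 pair, 14.4 and 15.7 in the E14 pair, 29.2 and 30.0 in the E15.5 pair, 29.2 and 28.5 in the E17 pair and 31.98 and 26.9 in the P0 pair. Its last 3 stages formed a plateau, with the P0 pair spanning all libraries of E15.5 and E17. Its rise from E12.5 to P0 was 1.75 on the log2 scale (SE 0.12, limma adjusted p = 6.78e-06). Across the 10 libraries the log2 CPM of both genes had a Pearson r of 0.97, a description over libraries that share their stages.

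Upstream sequence is shown for this pair and for the falling E proteins below, because E proteins bind E-boxes. The windows are the 250 bases before an annotated transcription start (RefSeq, mouse build GRCm38.p6), the first listed start where a gene has several, written 5′ to 3′ on the strand of the gene with every CANNTG in capitals.
Zbtb18 (chr1:177442101-177442350, + strand): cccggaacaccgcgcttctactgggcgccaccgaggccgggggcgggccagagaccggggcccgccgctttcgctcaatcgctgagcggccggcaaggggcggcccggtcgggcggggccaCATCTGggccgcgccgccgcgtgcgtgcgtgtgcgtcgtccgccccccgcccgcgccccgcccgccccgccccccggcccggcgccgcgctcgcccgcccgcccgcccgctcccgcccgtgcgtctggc
Zbtb20 (chr16:43247034-43247283, + strand): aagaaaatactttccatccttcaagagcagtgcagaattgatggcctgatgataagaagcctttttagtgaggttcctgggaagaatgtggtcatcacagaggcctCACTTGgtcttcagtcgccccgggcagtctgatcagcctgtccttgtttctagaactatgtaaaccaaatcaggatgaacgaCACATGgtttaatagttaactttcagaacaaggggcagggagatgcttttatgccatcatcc
The Zbtb18 window held 1 E-box and the Zbtb20 window held 2. CANNTG reads the same on both strands, and 66.2% of all 32851 such windows held at least 1. In all, 7 of the 9 genes had 16 windows, of which 13 held an E-box. The chromosome that carries Tcf4 was left out of these windows and of the 32851, so Tcf4 was not searched. Nfib had no window in the set used. The full NFI palindrome, TTGGC and GCCAA with 5 bases between them, was in none of the 16 and in 0.0365% of all windows. Its single arm TTGGC, on either strand, was in 3 of the 16 and in 41.5% of all. CATCTG, an E-box that is also the core of the Zbtb18 recognition sequence, was searched on both strands and was in 7 of the 16 windows, of which 5 were the overlapping or neighbouring windows of Zbtb18, and in 14.4% of all. These matches describe the letters in the windows. Which start the footprinted mRNAs used was not analysed here.

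Of the E proteins, 2 fell and Tcf4 did not pass the test. Tcf3, which encodes the founding E proteins of lymphocyte biology, held 192 and 228 CPM in the E12.5 pair, 231 and 208 in the E14 pair, 105 and 97.2 in the E15.5 pair, 63.9 and 63.6 in the E17 pair and 61.8 and 35.9 in the P0 pair. Its E12.5 and E14 libraries overlapped, all later libraries lay far below them, and P0 replicate 2 was the lowest. Tcf3 fell by 2.19 on the log2 scale from E12.5 to P0 (SE 0.22, limma adjusted p = 4.88e-05). Tcf12, which encodes HEB, held 165 and 168 CPM in the E12.5 pair, 173 and 163 in the E14 pair, 153 and 137 in the E15.5 pair, 99.1 and 104 in the E17 pair and 41.3 and 53.4 in the P0 pair. The E12.5 and E14 libraries again overlapped, and each later stage lay wholly below the one before. Its decline from E12.5 to P0 was -1.80 on the log2 scale (SE 0.13, limma adjusted p = 8.18e-06).

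Tcf4, the E protein whose loss in humans causes Pitt-Hopkins syndrome, held 2311 and 2531 CPM in the E12.5 pair, 3009 and 2471 in the E14 pair, 3386 and 3302 in the E15.5 pair, 2452 and 2626 in the E17 pair and 3013 and 2511 in the P0 pair. Only the E15.5 pair stood clear of the other stages, which overlapped one another. The difference from E12.5 to P0 was 0.19 on the log2 scale with an interval from -0.11 to 0.49 (limma adjusted p = 0.233). It was 0.35 without P0 replicate 2, the top of a range from 0.060 when single libraries were left out, and in that fit Tcf4 was called higher. With library totals as the only scaling it was 0.72 (adjusted p = 0.00137), under which the median of all genes was itself 0.51.

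The first listed windows of the falling pair read as follows.
Tcf3 (chr10:80433636-80433885, - strand): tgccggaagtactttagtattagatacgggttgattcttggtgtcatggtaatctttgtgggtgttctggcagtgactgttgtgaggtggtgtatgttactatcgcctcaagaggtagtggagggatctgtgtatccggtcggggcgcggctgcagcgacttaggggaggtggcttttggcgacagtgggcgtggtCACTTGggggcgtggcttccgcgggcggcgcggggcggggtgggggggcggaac
Tcf12 (chr9:72111820-72112069, - strand): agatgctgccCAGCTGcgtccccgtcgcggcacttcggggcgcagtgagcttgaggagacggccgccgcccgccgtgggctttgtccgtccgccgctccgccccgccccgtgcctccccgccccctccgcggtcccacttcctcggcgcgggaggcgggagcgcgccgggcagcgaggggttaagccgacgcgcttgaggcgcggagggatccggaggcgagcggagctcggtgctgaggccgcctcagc
Each held 1 E-box, and the Tcf3 window also held 1 TTGGC arm.

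Shares within a family do not depend on how libraries are scaled. Of the footprints on the 4 NFI genes, Nfix took 24.9% ± 0.73 (SD, n = 2) in the E12.5 pair, 31.9% ± 2.1 in the E14 pair, 40.9% ± 1.3 in the E15.5 pair, 48.8% ± 1.5 in the E17 pair and 54.2% ± 3.5 in the P0 pair. Nfib went the other way, from 50.9% ± 1.7 at E12.5 over 45.9% ± 0.53 at E15.5 to 34.4% ± 3.0 at P0, and Nfia went from 22.3% ± 1.0 to 9.09% ± 1.4. Nfic stayed between 1.09% and 2.97% in all 10 libraries. The libraries of E12.5 and P0 did not overlap for Nfia, Nfib or Nfix. An exact two-sided permutation test of 2 libraries against 2 cannot go below p = 0.333, and the shares were not tested.

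Of the E-protein footprints, Tcf4 took 86.6% ± 0.087 (SD, n = 2) at E12.5, 93.2% ± 0.31 at E15.5 and 96.6% ± 0.089 at P0. Tcf3 took 7.49% ± 0.40 at E12.5, 2.81% ± 0.092 at E15.5 and 1.68% ± 0.43 at P0. Tcf12 kept more of its share until E17, with 5.96% ± 0.32 at E12.5, 4.04% ± 0.22 at E15.5 and 3.75% ± 0.052 at E17, before 1.69% ± 0.51 at P0. The narrowing to Tcf4 was therefore seen in every pair of E12.5 and P0 libraries.

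**Figure D2:**
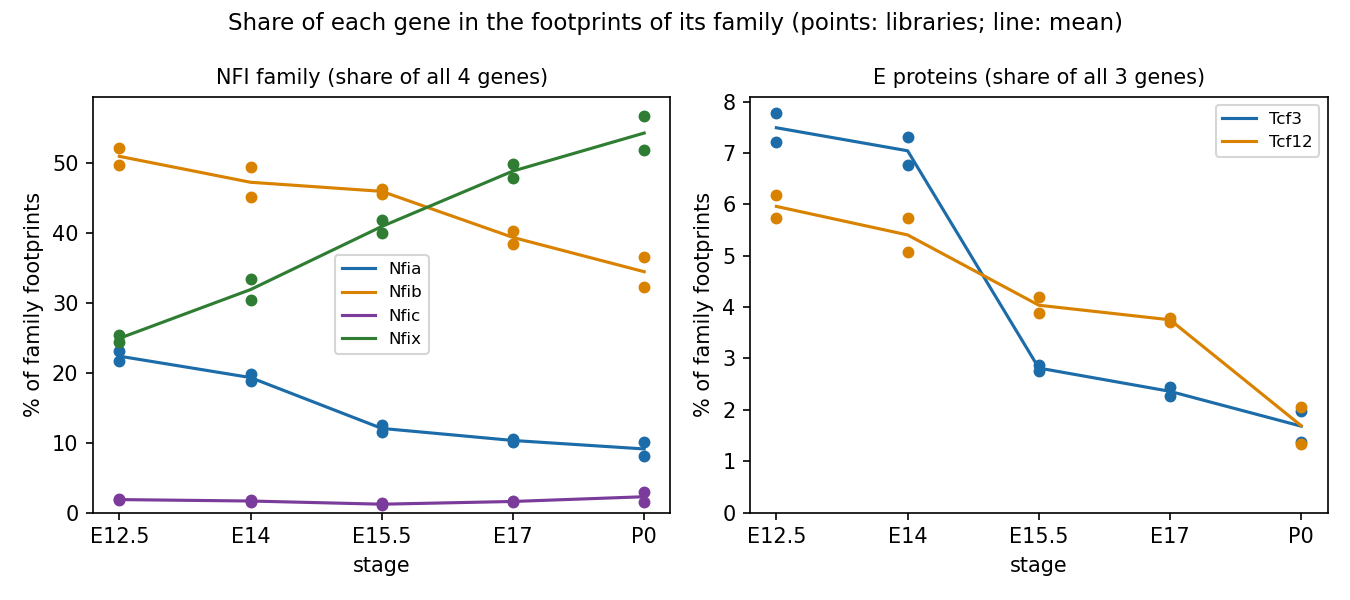
Share of each NFI gene in the footprints of all 4 NFI genes (left, %) and of Tcf3 and Tcf12 in those of all 3 E proteins (right, %, the rest being Tcf4), by stage, with 1 point per library and a line through the stage means. Nfix goes from 24.9% to 54.2% while Nfib and Nfia decline, and Tcf3 drops from 7.04% at E14 to 2.81% at E15.5.

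The NFI genes together held 1498 ± 57.6 CPM (SD, n = 2) at E12.5, 2413 ± 36.6 at E15.5 and 1414 ± 244 at P0. Scaled by library totals alone, the maximum again lay at E15.5 (2552 ± 46.6), but P0 at 1688 ± 248 lay above E12.5 at 1243 ± 93.1, so the order of the first and last stage depended on scaling. The 2 Zbtb genes together rose in both scales, from 341 ± 3.15 to 1154 ± 187 CPM and from 283 ± 7.73 to 1378 ± 187 by library totals alone.

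The successive stages were then compared gene by gene, with a gene called where its limma adjusted p was below 0.05 and its log2 change was at least 0.32 in either direction. From E12.5 to E14, 1 of the 9 genes was called higher, among 0.497% of all tested genes, and none was called lower, among 0.141% of all. The called gene was Zbtb20, by 0.80 on the log2 scale (SE 0.12, limma adjusted p = 0.0423). Nfix at 0.69 and Zbtb18 at 0.55 both had a limma adjusted p of 0.0705. This first step was sensitive to single libraries. Without either P0 library, Nfix (adjusted p = 0.00379 and 0.00464) and Zbtb18 (0.00608 and 0.00714) were called as well, and without any single one of the other 8 libraries Zbtb20 was not called (0.74 to 0.86 on the log2 scale, adjusted p = 0.115 to 0.267). The calls over all genes moved likewise, from 86 of 13484 in the full fit to 1062 and 1052 without P0 replicate 1 and 2 and to 0 to 5 without any of the other 8.

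From E14 to E15.5, 3 of the 9 genes were called higher, against 16.5% of all tested genes, and 2 were called lower, against 19.6%. Zbtb20 rose by 0.98 (log2, SE 0.11, limma adjusted p = 0.000418), Zbtb18 by 0.96 (SE 0.12, adjusted p = 0.000557) and Nfix by 0.71 (SE 0.15, adjusted p = 0.00616). Tcf3 fell by 1.12 (SE 0.21, limma adjusted p = 0.00411). Nfia fell by 0.33 (SE 0.088, limma adjusted p = 0.0203), a call that was lost without any single one of the 4 libraries compared (adjusted p = 0.0546 to 0.168). The other 4 calls held without any single library. Nfib at 0.32 (limma adjusted p = 0.0528), Tcf4 at 0.29 and Tcf12 at -0.21 did not pass. Neuron markers moved in the same step, with 9 of 10 called higher, as did progenitor markers, with 10 of 10 called lower, and all 6 meningeal fibroblast genes were called lower. Their part in these results was not tested.

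With library totals as the only scaling, the median of all genes from E14 to E15.5 moved to 0.29, and of all called genes 72.7% were higher, against 45.6% with TMM. Relative to that median Nfia was at -0.32, Tcf12 at -0.20 and Nfib at 0.33. On this scale itself Nfia was at -0.034 (adjusted p = 0.781), Tcf12 at 0.081, Nfib at 0.61 (adjusted p = 0.00365) and Tcf4 at 0.59 (adjusted p = 0.00798), so that 5 of the 9 genes were called higher and 1 lower.

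From E15.5 to E17, none of the 9 genes was called higher, against 5.61% of all tested genes, and 3 were called lower, against 3.43%. These were Nfia at -0.53 (log2, SE 0.088, limma adjusted p = 0.0147), Nfib at -0.53 (SE 0.11, adjusted p = 0.0253) and Tcf12 at -0.51 (SE 0.12, adjusted p = 0.0401). The genes that had risen before were near level, with Nfix at -0.050 (95% interval -0.39 to 0.29), Zbtb18 at 0.080 (-0.19 to 0.35) and Zbtb20 at -0.035 (-0.28 to 0.21). None of the 3 calls was kept without any single one of the 4 libraries of E15.5 and E17 (adjusted p = 0.0835 to 0.158 for Nfia, 0.123 to 0.208 for Nfib), and Tcf12 also lost its call without any library of E12.5 or E14 (0.0698 to 0.278 over all 8). In those fits the fold changes lay between -0.46 and -0.61 for Nfia, -0.48 and -0.57 for Nfib and -0.44 and -0.60 for Tcf12. In the fits without E15.5 replicate 1, E15.5 replicate 2 or E17 replicate 2, limma called 0 of the 13484 genes (2048, 2227 and 2312 had an unadjusted p below 0.05), and in that without E17 replicate 1 it called 18, against 1219 in the full fit. Without either P0 library, Tcf3 at -0.66 (adjusted p = 0.00411) or -0.67 (0.00439) and Tcf4 at -0.40 (0.0268 and 0.0276) were called lower too.

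From E17 to P0, none of the 9 genes was called higher, against 9.46% of all tested genes, and 3 were called lower, against 11.1%. They were the 3 of the step before. Nfia fell by 0.66 (log2, SE 0.089, limma adjusted p = 0.00295), Nfib by 0.67 (SE 0.11, adjusted p = 0.00544) and Tcf12 by 1.09 (SE 0.13, adjusted p = 0.00203). When only the 4 libraries of E17 and P0 were fitted, no call was left, with adjusted p = 0.0999, 0.103 and 0.0883 and log2 changes of -0.65, -0.66 and -1.08 in the same order. Limma called 0 of the genes tested in that fit (2962 had an unadjusted p below 0.05), against 2767 in the full fit, and other tools were run on all stages only (2482 genes with edgeR, 2224 with DESeq2). Without E17 replicate 1, Nfib was at -0.63 with an adjusted p of 0.0598, and 552 genes were called in all. The remaining genes followed whichever P0 library was kept. Without P0 replicate 1, Zbtb18 (0.34, adjusted p = 0.0118) and Nfic (0.61, adjusted p = 0.015) were called higher and Tcf3 (-0.83, adjusted p = 0.00282) lower. Without P0 replicate 2, Nfix (-0.54, adjusted p = 0.00266) and Nfic (-0.64, adjusted p = 0.0324) were called lower.

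**Figure D3:**
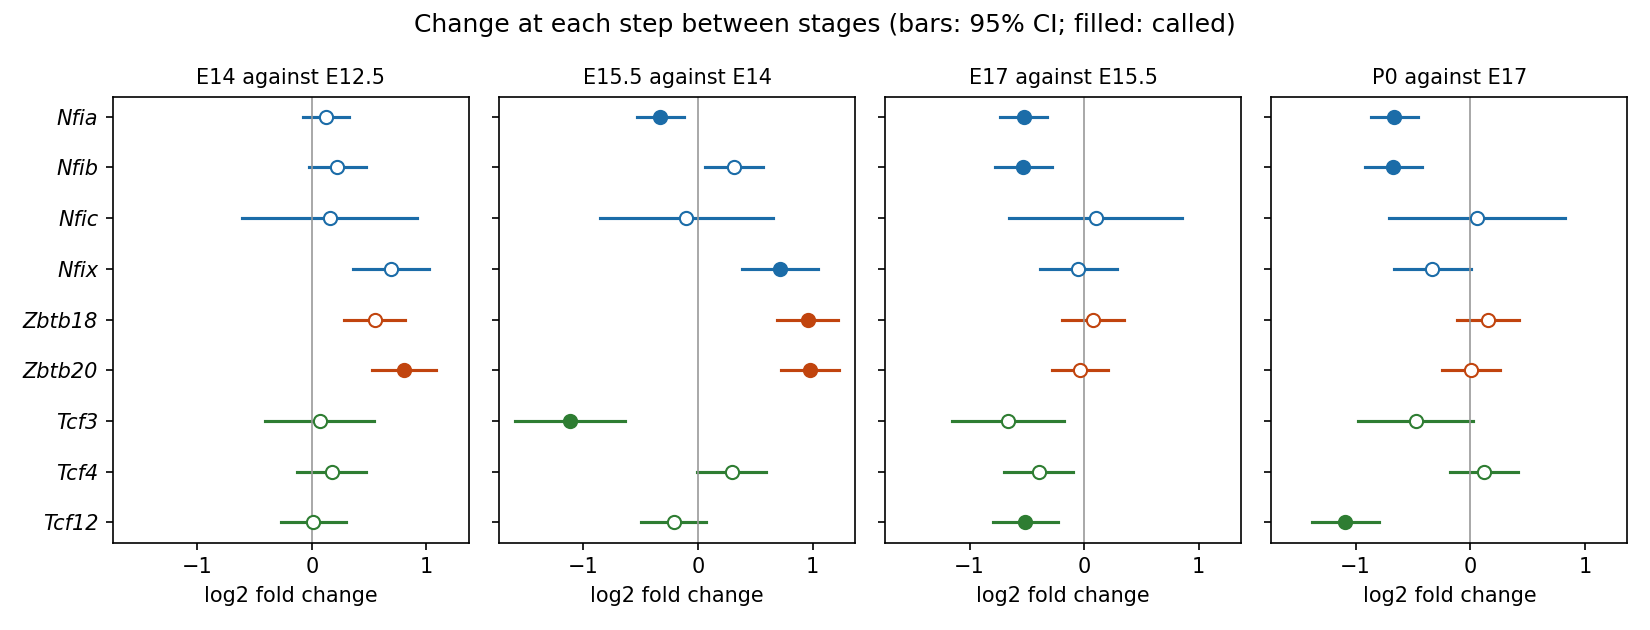
Fitted log2 fold change (horizontal axis) of the 9 genes in the 4 steps between successive stages, with 95% confidence intervals as bars and filled points for genes called changed (limma adjusted p below 0.05 and a log2 change of at least 0.32). The called rises of Zbtb20 lie in the first 2 steps and those of Nfix and Zbtb18 in the step from E14 to E15.5 alone. The called declines of Nfia, Nfib and Tcf12 continue to P0.

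Longer spans were compared in the same way. From E12.5 to E17, 3 of the 9 genes were called higher, against 26.9% of all tested genes, and 3 were called lower, against 27.8%. The higher ones were Zbtb20 (1.74), Zbtb18 (1.58) and Nfix (1.35), and the lower ones Tcf3 (-1.71), Nfia (-0.73) and Tcf12 (-0.71), all log2. By library totals alone the E12.5 to E17 median of all genes was 0.40 and 73.3% of all called genes were higher (49.2% with TMM), Nfia at -0.32 and Tcf12 at -0.30 no longer passed, and Nfib at 0.42 and Tcf4 at 0.48 (both adjusted p = 0.0125) were called higher, which made 5 higher and 1 lower. From E12.5 to P0, 3 were called higher, against 30.1%, and 4 lower, against 32%, Nfib being the added one. All 7 calls held without any single library. Tcf4 was called higher too without P0 replicate 2, and Nfic without P0 replicate 1. With library totals alone, 72.0% of all called genes were higher (48.5% with TMM), Nfib at -0.13 (adjusted p = 0.327) was not called and Tcf4 was called higher, which made 4 higher and 3 lower. A test for any difference among the 5 stages called 7 of the 9 genes, against 63.8% of all tested genes, and left out Nfic (limma adjusted p = 0.969) and Tcf4 (0.0771).

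The partners and inhibitors of E proteins changed as well. Of the 4 Id genes, 2 were called higher and 1 lower at P0 than at E12.5, with a list median of 0.64 on the log2 scale beside -0.013 for all tested genes, of which 30.1% were called higher and 32% lower. Id2, which restrains bHLH activity in differentiating cells, held 90.9 and 96.9 CPM in the E12.5 pair, 127 and 146 in the E14 pair, 538 and 525 in the E15.5 pair, 605 and 560.4 in the E17 pair and 512 and 412 in the P0 pair. Its log2 rise between E14 and E15.5 was 1.96 (limma adjusted p = 6.04e-05), after a difference of 0.54 from E12.5 to E14 that did not pass (adjusted p = 0.0905). Id4, a progenitor gene, held 209 and 255 CPM in the E12.5 pair, 216 and 166 in the E14 pair, 48.2 and 36.6 in the E15.5 pair, 26.2 and 22.9 in the E17 pair and 31.4 and 17.9 in the P0 pair. It fell by 2.17 between E14 and E15.5 (log2, limma adjusted p = 0.00045), and no later library reached the E12.5 or E14 levels. Id3 fell by 1.40 in that step too (adjusted p = 0.0021), then rose by 1.30 from E17 to P0 (adjusted p = 0.00681), ending 0.45 above E12.5 (adjusted p = 0.105). Id1 rose by 0.82 from E12.5 to P0 (adjusted p = 0.0117), a call lost without E12.5 replicate 1 (0.0562), while Id3 was called higher without P0 replicate 2 (0.83, adjusted p = 0.00548). Leaving out single libraries thus gave 1 to 3 higher calls on this list.

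The count of E-protein footprints per Id footprint, a ratio that needs no scaling, was 7.64 and 7.18 in the E12.5 pair, 8.26 and 7.69 in the E14 pair, 5.85 and 5.99 in the E15.5 pair, 3.91 and 4.48 in the E17 pair and 4.85 and 5.27 in the P0 pair. Every library from E15.5 on lay below every earlier one, and only the change of this ratio is read, because the genes differ in length. Tcf4 made up most of its numerator and, from E15.5 on, Id2 most of its denominator.

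The ETO-family corepressors bind an activation domain of E proteins. All 3 were tested, and at P0 against E12.5 2 were called higher and 1 lower, beside the same 30.1% and 32% of all tested genes. Runx1t1 held 13.0 and 13.7 CPM in the E12.5 pair, 21.4 and 19.2 in the E14 pair, 54.6 and 57.9 in the E15.5 pair, 62.9 and 60.4 in the E17 pair and 69.4 and 77.2 in the P0 pair and rose by 2.45 on the log2 scale (SE 0.11, limma adjusted p = 9.23e-07), with each stage wholly above the one before. Cbfa2t3 rose by 0.71 (adjusted p = 0.00254), whereas Cbfa2t2 fell by 0.60 (adjusted p = 0.00153), a call lost with library totals alone (-0.076).

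**Figure D4:**
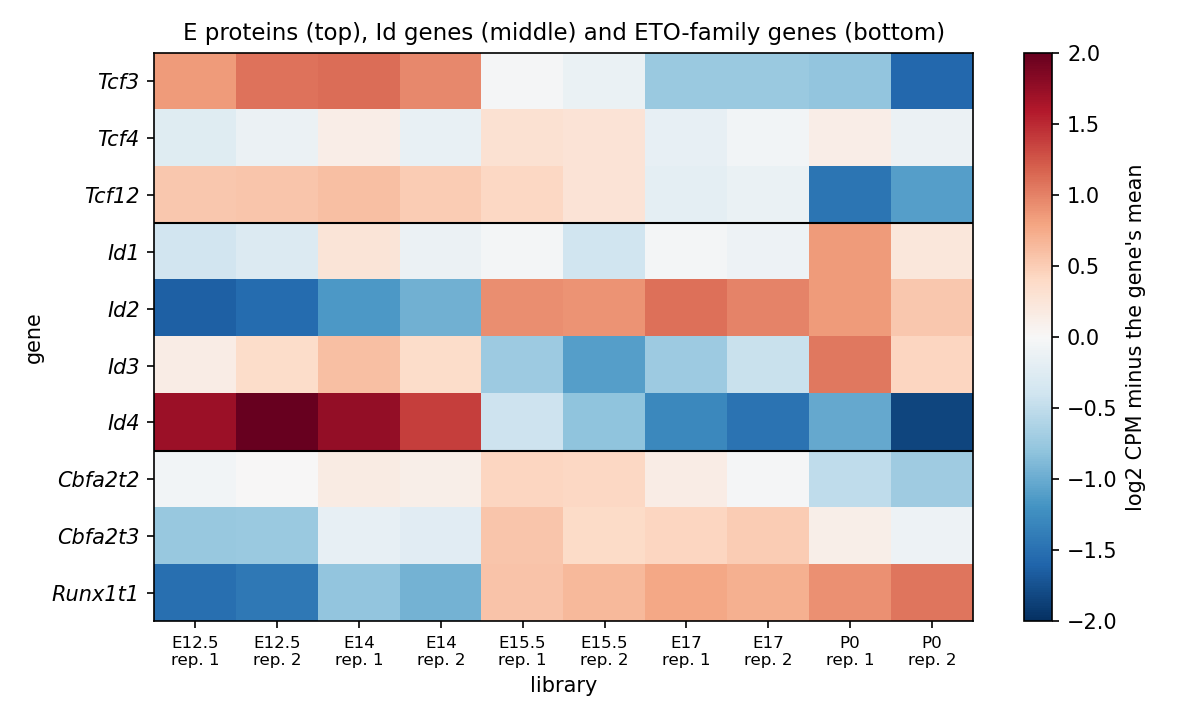
Log2 CPM of each gene minus its own mean over the 10 libraries (colour scale from -2.0 to 2.0) for the E proteins, the Id genes and the ETO-family genes, with 1 column per library in stage order. Tcf3, Tcf12 and Id4 go from red to blue across the columns, Id2 and Runx1t1 from blue to red, and Tcf4 stays pale throughout.

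Of the 13 class II bHLH partners listed, 12 were tested, and 5 were called higher and 6 lower at P0 than at E12.5, where 30.1% and 32% of all tested genes were, with a list median of -0.83 on the log2 scale. The lower ones were proneural and early neuronal genes. Nhlh1 averaged 24.1 ± 3.3 CPM (SD, n = 2) at E12.5 and 0.459 ± 0.58 at P0, and Neurog1 13.9 ± 2.4 and 0.204 ± 0.019. The higher ones included the oligodendrocyte factors Olig1, with 0.231 ± 0.062 CPM at E12.5 and 36.1 ± 14 at P0, and Olig2, with 0.612 ± 0.087 and 15.8 ± 8.0. The other higher ones were neuronal genes, Neurod2, Bhlhe22 and Neurod6, the last of which is also a listed neuron marker. Neurod2 averaged 31.6 ± 3.1 CPM at E12.5 and 86.5 ± 33 at P0, Bhlhe22 13.5 ± 2.0 and 53.3 ± 23, and Neurod6 119 ± 7.6 and 194 ± 46. From E14 to E15.5, when Tcf3 fell, 4 of the 12 were called higher and 5 lower (16.5% and 19.6% of all tested genes), which became 1 and 3 without E14 replicate 2, 2 and 3 if E15.5 replicate 1 was dropped, and 2 and 4 when either other library of these stages was dropped.

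Of 10 genes described as NFI-regulated in mouse brain, 9 were tested, and 3 were called higher and 5 lower at P0 than at E12.5 (list median -2.08), beside 30.1% and 32% of all tested genes, with 2 higher without E12.5 replicate 2. Gfap, the astrocyte filament gene that NFI factors are known to activate, averaged 0.13 ± 0.028 CPM at E12.5 and 11.4 ± 1.3 at P0. Zcchc24 rose by 0.82 on the log2 scale (limma adjusted p = 0.00311). Apcdd1, a Wnt inhibitor, fell by 3.13 (adjusted p = 8.19e-06), and Ezh2, the Polycomb methyltransferase reported as repressed by NFI, fell by 2.65 (adjusted p = 2e-05). Over the same span Nfix rose while Nfia and Nfib fell, and all 10 progenitor markers were called lower, as given above. Hes1 is both on the NFI-regulated list and among these progenitor markers. Of 12 astrocyte markers, Gfap being one, 9 were called higher and 3 lower. The part of the NFI genes and of these cell types in the changes of the NFI-regulated list was not tested.

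Of 38 other tested genes with symbols starting with Zbtb and a digit, 13 were called higher and 4 lower at P0 than at E12.5, beside 30.1% and 32% of all tested genes, with a list median of 0.31. One of them, Zbtb8os, encodes an archease and no BTB protein, and without it, a count added after the values were seen, 13 were called higher and 3 lower of 37, with a median of 0.34. Zbtb16, also called PLZF, rose by 2.34 on the log2 scale (adjusted p = 6.18e-05) from 0.999 ± 0.14 CPM, and Zbtb8b rose by 2.58 (adjusted p = 0.000158) from 0.482 ± 0.059 CPM. Zbtb1 fell by 1.67 (adjusted p = 0.000277), while Zbtb42 averaged 1.44 ± 1.0 CPM at E12.5 and 0.0597 ± 0.084 at P0 and did not pass (adjusted p = 0.0503). Zbtb42 was called lower without E12.5 replicate 1 (adjusted p = 0.0133) or either E15.5 library (0.0467 and 0.0462), and by edgeR (0.0145) and DESeq2 (0.00581). The list count moved with scaling, from 13 higher and 4 lower to 24 and 2 with library totals alone, and without single libraries it ranged from 10 to 15 higher and from 2 (without E12.5 replicate 2) to 7 (without P0 replicate 1) lower.

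The genes whose courses were most like each member were found by Pearson correlation of log2 CPM over the 10 libraries among 9206 well-counted genes, as a description with no p, since libraries share stage and depth. Nearest to Zbtb18 were Phactr1, Ttll1 and Snurf (r = 0.998 to 0.996), and nearest to Zbtb20 were Arl4d, Lhx6 and Mpped1 (0.996 to 0.995). Lhx6 is a defining gene of interneurons from the ganglionic eminence, whose 10 markers together held 29.9 to 31.8 CPM at E12.5 and 194 to 229 at P0. Lhx6 is itself among these 10 markers, and any part of such cells in the course of Zbtb20 was not tested. Nearest to Nfix were Gm43552, Rps6ka5 and Nol4 (0.984 to 0.981). Nearest to Nfia were Tfap2c, Gca and Ss18 (0.994 to 0.989), and to Nfib Rasgef1b, Pik3r3 and Gm49337 (0.984 to 0.982). Nearest to Tcf3 were Nme4, Dmrta2 and Trip6 (0.997 to 0.996), of which Dmrta2 is a cortical progenitor factor, and to Tcf12 Esd, Ankrd13a and Tob1 (0.995 to 0.992). Tcf4 had weaker matches in Pex5, Klhl25 and Zfp668 (0.954 to 0.913), as did Nfic in Leo1, Kansl2 and Tpm3 (0.95 to 0.879).

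Among the members themselves, Nfia ran closest to Tcf12 (r = 0.979) and Tcf3 (0.915), and Nfix to Zbtb20 (0.921) and Zbtb18 (0.913). Nfia and Nfix had an r of -0.44 although they belong to one family. Tcf4 had an r of -0.069 with Tcf3 and of -0.0088 with Tcf12.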

How the data were processed

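Neocortex was lysed and digested with RNase T1 and RNase A, and protected fragments were sequenced. Per the study's methods, the authors trimmed adapters, collapsed duplicate reads, removed tRNA, rRNA and snoRNA reads, and aligned the rest with STAR to GENCODE M12 with multi-mapping reads kept. The labels name STAR 2.7.0, and the methods name another release. The authors deposited a table of unnormalized whole-number footprint counts per gene, 1 column per library. The methods name DeepShape-prime for isoform abundance and tximport for length-corrected sums of these per gene. Whether the table holds those values, in which case a shift between isoforms would also move a count, or plain read counts is not given in the sources used here. How reads shared between similar genes were assigned can change counts and family shares, and this was not tested. No gene had counts within 5% of a member's in every library, a check that cannot detect partial sharing of reads. Of the identifiers, 22274 of 22373 matched a symbol.

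A gene was tested where the 2 libraries of any stage together held 32 footprints or more, by limma-voom (limma 3.58.1, edgeR 4.0.16 for TMM factors, R 4.3.3), with 1 coefficient per stage over all 10 libraries and Benjamini-Hochberg adjustment over the 13484 genes. Calls needed an adjusted p below 0.05 and a log2 change of at least 0.32 up or down, as in the study, and the test over all stages needed the p alone. p-values measure the spread between pooled samples. The steps were also run on simulated data, in which each gene had the same spread at every stage. The wider spread of the P0 libraries was therefore not simulated. Alternatives were other scalings, filters, weights, edgeR and DESeq2 1.42.0 tests, a replicate block and leaving out each library. Fits on fewer libraries applied the footprint filter anew to the libraries kept. Their tests and p adjustment could thus cover fewer genes than the 13484 of the full fit. The members and lists were chosen with earlier results of these data known. All 9 members and all 4 Id genes were named. From each other list the 2 largest fitted rises and falls from E12.5 to P0 were named where there were that many, and for each member the 3 genes of highest correlation with a mean of at least 100 counts. Neurod2, Neurod6, Bhlhe22 and Hes1 were named besides these, after the values were seen.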

Additional observations from a re-analysis of the deposited data

How the results depend on the processing

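Calls among the 9 genes from E14 to E15.5, E12.5 to E17 and E12.5 to P0, and over all stages, stayed within 1.5 times the reported number under every alternative, but with library totals only the split into higher and lower became 5 and 1, 5 and 1, and 4 and 3 in the first 3 of these. With TMM factors computed without the Hist genes, the E14 to E15.5 split moved as well. There Nfia at -0.310 fell short of the fold threshold, and Nfib at 0.334 (limma adjusted p = 0.0387) was called higher. With no filter, Nfia at -0.316 was not called in this step either. From E12.5 to E14, where 1 gene was called, 3 were called with library totals only, with a mean of at least 100 counts, with DESeq2 and with sample quality weights, and 0 with no filter, with only the 2 stages fitted and with the replicate block, and 0 to 3 without single libraries. From E15.5 to E17, where 3 were called, 5 were called with sample quality weights and with only the 2 stages fitted, and 0 to 5 without single libraries. From E17 to P0, where 3 were called, 0 were called with only the 2 stages fitted and 2 to 6 without single libraries. Tcf12 from E15.5 to E17 was not called with no filter (limma adjusted p = 0.0679) or with edgeR (adjusted p = 0.0564). The replicate block, which assumes that the replicate numbers pair libraries, also lost the call of Tcf12 from E15.5 to E17 (adjusted p = 0.0657) and of Zbtb20 from E12.5 to E14 (0.0968), and changed no other call. Whether the replicate numbers pair the samples was not settled. The deviations of same-numbered libraries correlated above 0.1 in 5 of 10 pairs of stages (-0.633 to 0.427). Those of E12.5 correlated negatively with every other stage (-0.633 to -0.108).

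Sign changes were confined to values that had not passed the test, under the alternatives run. With library totals only, Nfic (0.19) and Tcf12 (0.081) were above 0 from E14 to E15.5, and Nfix (0.012) and Zbtb20 (0.027) from E15.5 to E17. Nfib from E12.5 to E17 was -0.00044 with DESeq2 size factors, -0.015 with a mean of at least 100 counts and -0.00105 with DESeq2. From E17 to P0, Nfic was -0.14 with sample quality weights and Zbtb20 -0.0197 with no filter. Leaving out single libraries gave ranges that crossed 0 for Nfib from E12.5 to E17 (-0.067 to 0.081), Nfic from E14 to E15.5 (-0.25 to 0.042), from E15.5 to E17 (-0.048 to 0.25), from E12.5 to P0 (-0.48 to 0.77) and from E17 to P0 (-0.64 to 0.61), Tcf12 (-0.029 to 0.0597) and Tcf3 (-0.054 to 0.19) from E12.5 to E14, and Tcf4 (-0.013 to 0.28) and Zbtb20 (-0.099 to 0.18) from E17 to P0. The cause of these differences was not tested. Shares per kilobase of coding sequence were planned and not run, because no coding lengths were used here. The number of calls over all genes moved with these settings too. From E12.5 to E14 it was 86 of 13484 as reported, 27 with no filter, 11 with only the 2 stages, 4 with the replicate block, 143 with library totals only, 154 with the stricter filter, 399 with DESeq2 and 655 with sample quality weights. Single libraries left out gave 0 to 1062. From E15.5 to E17 it was 1219, with 773 under no filter, 3717 under the weights, 3267 in the fit of only the 2 stages and 0 to 2863 without single libraries. From E17 to P0 it was 2767, with 698 under the weights, 0 in the fit of only the 2 stages (limma, 2962 at an unadjusted p below 0.05) and 552 to 4419 without single libraries. Each stage has 2 libraries, P0 replicate 1 is the shallowest, and Nfic and Zbtb20, with the lowest counts, carry the widest counting error.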
